A study of Mus musculus with 6 samples.

Results

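A set of 13 lentiviral lineage barcodes marked PB3 mouse mammary tumour cells that, before any drug, lay mostly in cluster 6 of the authors' clustering. The members were chosen by their untreated values: a barcode called in 10 or more untreated whole cells whose most frequent cluster was 6. In all, 13 of the 697 different barcodes called in the series met this, out of 103 barcodes with at least 10 untreated cells. Of the others, 60 were led by cluster 1 and 29 by cluster 5. The rule also left out 3 barcodes by name, but none of them was led by cluster 6, so this removed no member. Of the 3, the barcode with 35 untreated cells was led by cluster 5 and was kept among those 29.

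PB3 is a mouse mammary tumour cell line, grown here in culture. Untreated cells (UNT cells) and cells after 4 rounds of eribulin (ERI4 cells) were sequenced in run 1. Run 2 held a paclitaxel library, in which hashtag oligos told apart cells of 1 round (PAC1), 2 rounds (PAC2) and 3 rounds (PAC3), and an eribulin library made in the same way (ERI1, ERI2 and ERI3). Run 3 held nuclei, untreated (UNT nuclei) and after 4 eribulin rounds (ERI4 nuclei). Each eribulin round was 500 nM for 72 h followed by 48 h without drug. Paclitaxel was given at 100 nM for 72 h in the first round and at 250 nM later, with 48 h without drug between the first rounds of PAC2 and PAC3. For PAC2 no drug-free time is stated at the end, and for PAC1 and PAC3 its length is not. Every condition has 1 library, so no test was possible and values are set side by side with exact Clopper-Pearson 95% intervals in parentheses. These cover counting error only, and the spread between cultures is unknown.

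A lineage barcode is a short random sequence that a lentivirus inserts into the genome. Daughter cells inherit it, so cells that share one are taken to descend from one infected cell, and its transcript can be read together with the messenger RNA of the cell. Eribulin and paclitaxel both act on microtubules, the first by blocking their growth and the second by stabilising them, and both arrest dividing cells in mitosis. Following a barcode from untreated to treated cells shows in which states its lineage was found before and after treatment, and whether it was still found later. Whether a cell kept its state or entered it later cannot be read from separate samples.

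The barcodes themselves are 48 bases long: a part named bc14, the fixed linker TGGT and a part named bc30. Shown here are the members with most untreated cells, those with the highest share in a drug condition, and those at the ends of the range of cluster 6 shares and of cell numbers. Capitals mark bc14 and lower case the linker and bc30, 5′ to 3′.
bc14-14-bc30-67938: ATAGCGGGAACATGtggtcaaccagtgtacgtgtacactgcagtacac
bc14-92-bc30-83570: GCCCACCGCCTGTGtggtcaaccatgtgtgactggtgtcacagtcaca
bc14-21-bc30-67560: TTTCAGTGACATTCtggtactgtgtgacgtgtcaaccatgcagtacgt
bc14-51-bc30-21431: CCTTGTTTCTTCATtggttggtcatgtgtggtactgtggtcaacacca
bc14-51-bc30-38039: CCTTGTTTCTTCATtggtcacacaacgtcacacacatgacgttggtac
bc14-69-bc30-34430: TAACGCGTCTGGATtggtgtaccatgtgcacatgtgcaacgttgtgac
bc14-99-bc30-76284: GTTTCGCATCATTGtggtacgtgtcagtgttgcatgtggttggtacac
bc14-95-bc30-88306: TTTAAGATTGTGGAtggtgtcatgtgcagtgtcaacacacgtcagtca

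In all 13 members the bc30 part was built from 15 dinucleotides of the 4 kinds AC, CA, GT and TG, which fixes its GC content at 50.0%. The members carried 10 different bc14 parts, since 3 pairs shared one, as both bc14-51 barcodes do in the capitals above. Sharing a bc14 part gives no kinship, because the barcode is the combination of both parts. Between any 2 members the bc30 parts differed at 12 or more positions. Over the whole barcode, the nearest of the 103 was at least 16 mismatches away from each member, so no pair of them was nearly alike.

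In UNT cells the 13 lineages held 503 of 5087 barcoded cells, that is cells with 1 called barcode, or 9.89% (9.08 to 10.7). Their sizes were uneven, with 15 to 91 UNT cells and a median of 27. The largest, bc14-14-bc30-67938, had 91 cells, bc14-92-bc30-83570 had 80, bc14-21-bc30-67560 had 73, bc14-51-bc30-21431 had 47 and bc14-51-bc30-38039 had 43. The smallest, bc14-95-bc30-88306, had 15, so no member stood at the minimum of 10. Below it, no barcode with 5 to 9 UNT cells was led by cluster 6, and bc14-89-bc30-73785, named after its values were seen, came nearest with 4 of 8 cells there, a tie with another cluster.

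How far the lineages lay in cluster 6 differed widely, which is given as a description because the rule used these cells. Over all members 360 of 503 UNT cells, 71.6% (67.4 to 75.5), lay in cluster 6, 104 cells or 20.7% (17.2 to 24.5) in cluster 1 and 28 cells or 5.57% (3.73 to 7.95) in cluster 5. Of the cells of bc14-21-bc30-67560, 72 of 73 lay in cluster 6, or 98.6% (92.6 to 100). Of those of bc14-99-bc30-76284 only 11 of 24 did, or 45.8% (25.6 to 67.2), with 7 in cluster 1. The largest lineage was also mixed: 51 of the 91 cells of bc14-14-bc30-67938, 56.0% (45.2 to 66.4), lay in cluster 6 and 32 in cluster 1. For all 13 the next cluster was cluster 1, tied with cluster 5 at 7 cells each in bc14-51-bc30-21431. The members supplied most of the cluster: of the 537 barcoded UNT cells in cluster 6, 360 or 67.0% (62.9 to 71.0) carried a member barcode.

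Pseudotime, a score of position along an inferred path that the authors rooted in untreated cells, differed between members. Over all members the median in UNT cells was 9.52 (9.31 to 9.59, the exact binomial interval of a median over cells), against 8.51 (8.34 to 8.66) for cluster 1 led and 2.46 for cluster 5 led lineages. These sets were sorted by the clusters of the same cells, so their order is a description. The mean of the member medians was 8.92, outside the members' interval over cells. The medians of bc14-21-bc30-67560 and bc14-14-bc30-67938 were the highest, both 10.02, and that of bc14-92-bc30-83570 was 9.58. The lowest medians belonged to bc14-99-bc30-76284 at 7.05 (6.13 to 7.59), to bc14-51-bc30-38039 at 7.08 (6.60 to 7.48) and to bc14-51-bc30-21431 at 7.48 (7.07 to 7.78). The intervals of these 3 lay below that of bc14-92-bc30-83570, 9.46 to 9.79. Among UNT cells of cluster 6 alone the median was 9.56 (9.51 to 9.64) in member cells and 9.55 (9.12 to 9.66) in cells of all other called barcodes, with a median of 18671 UMIs (counted RNA molecules) in the member cells and 25916 in the others.

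In the nuclei, which the rule did not use, cluster 6 held a higher share of the members than of other lineages. All 13 members were called in UNT nuclei, where 99.0% of the 103 barcodes were, and held 395 of 4935 barcoded nuclei or 8.00% (7.26 to 8.80). Of their nuclei, 77 lay in cluster 6, or 19.5% (15.7 to 23.7), against 84 of 4540 nuclei of all other called barcodes, or 1.85% (1.48 to 2.29). The same share was 2.05% (1.43 to 2.84) for cluster 1 led and 0.533% (0.196 to 1.16) for cluster 5 led lineages. Cluster 6 nuclei were found in 11 of the 13 members, and in 38.4% of all barcodes with 5 or more UNT nuclei. By lineage the share had a median of 20.0% and reached 30.0% in bc14-21-bc30-67560, with 15 of 50 nuclei, while bc14-92-bc30-83570 had 17 of 69 and bc14-14-bc30-67938 had 6 of 52. It was 0 in the lowest members, and single cluster 1 led lineages reached 28.6% around a median of 0, so the ranges overlap almost fully. Cluster 5 led lineages reached 6.25%.

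Most member nuclei, 220 or 55.7% (50.6 to 60.7), were in cluster 0, and 52 or 13.2% (9.99 to 16.9) were in cluster 11. The most frequent cluster of the members was thus 6 in UNT cells and 0 in UNT nuclei. Member nuclei had a median of 3411 UMIs and 9.66% mitochondrial UMIs, against 3704 and 9.77% in nuclei of cluster 1 led lineages. Inside cluster 0 the median pseudotime of member nuclei was 14.16 (13.98 to 14.30), between 12.43 for cluster 5 led and 14.94 for cluster 1 led lineages.

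After 1 round of paclitaxel the members were about as frequent as before and lay mostly in cluster 6. They held 150 of 1792 barcoded PAC1 cells, 8.37% (7.13 to 9.75), against 9.89% (9.08 to 10.7) in UNT cells, and these intervals overlap. The order of the 2 shares turned with the denominator: over all cells, barcoded or not, members made up 5.12% of PAC1 and 4.55% of UNT cells. Of the 150 cells, 134 lay in cluster 6, or 89.3% (83.3 to 93.8), above the 71.6% (67.4 to 75.5) of UNT cells. Cluster 6 was also more frequent outside the members, with 31.5% (29.2 to 33.8) of the cells of all other called barcodes in PAC1 and 3.86% (3.32 to 4.46) in UNT cells. The sizes of these rises cannot be ranked, because the rule chose the members for cluster 6 in UNT cells. Cluster 1 held 5 of the 150, or 3.33% (1.09 to 7.61), against 20.7% of member cells in UNT cells. PAC1 and UNT cells came from different runs, so run and drug cannot be told apart in these differences.

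Within PAC1 the members can be set beside other lineages of the same library. Cluster 6 held 89.3% of member cells, 31.5% of the cells of all other called barcodes, 33.3% (29.1 to 37.8) of those of cluster 1 led lineages and 52.3% (42.6 to 61.8) of those of cluster 5 led lineages. By lineage, among those with 5 or more PAC1 cells, the share ran from 50.0% to 100% over 9 members with a median of 91.7%. Over 14 cluster 1 led lineages it ran from 10.0% to 83.3% with a median of 39.6%, and over 8 cluster 5 led lineages from 41.7% to 60.0% with a median of 53.0%. The ranges of members and of both other sets overlap. Cluster 6 was the most frequent PAC1 cluster in 9 of 9 members, in 6 of 14 cluster 1 led and in 8 of 8 cluster 5 led lineages, and in 71.9% of all 32 such barcodes, so leading there was common. In PAC1 the members made up only 134 of the 651 barcoded cells in cluster 6, or 20.6% (17.5 to 23.9), against 67.0% in UNT cells.

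By lineage, purity differed in PAC1 as well. Of bc14-21-bc30-67560, 37 of 38 PAC1 cells lay in cluster 6, of bc14-92-bc30-83570 34 of 36, of bc14-69-bc30-34430 14 of 15, and of bc14-51-bc30-38039 11 of 11. The mixed bc14-14-bc30-67938 had 7 of 11 and the small bc14-95-bc30-88306 had 3 of 6. In UNT cells these lineages had 56.0% and 53.3% of their cells in cluster 6, values that the rule used. Of bc14-51-bc30-21431, at 66.0% in UNT cells, 10 of 13 PAC1 cells lay there. With so few PAC1 cells, a link between the shares in UNT cells and PAC1 was not tested.

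Although in one cluster, member cells of PAC1 lay at an earlier pseudotime than their neighbours. In cluster 6 of PAC1 the median was 15.78 (15.40 to 15.93) in 134 member cells, 17.64 (17.32 to 17.73) in cells of cluster 1 led lineages, 17.69 (17.62 to 17.72) in those of cluster 5 led lineages and 17.69 (17.65 to 17.72) in all other called cells. Single lineages differed. Among members with 5 or more such cells the medians ran from 11.70 in bc14-14-bc30-67938 over 15.26 in bc14-21-bc30-67560, 15.78 in bc14-51-bc30-38039 and 15.83 in bc14-92-bc30-83570 to 17.36 in bc14-69-bc30-34430 and 17.62 in bc14-51-bc30-21431. The highest, 17.67, was that of bc14-13-bc30-62836, named here after its values were seen. Over 6 cluster 1 led lineages the range was 16.25 to 18.64 and over 3 cluster 5 led lineages 17.33 to 17.71, so some members fell below all of these and others among them. The medians of both bc14-51 lineages, near each other in UNT cells, differed here over 10 and 11 cells. Depth and the mitochondrial share were near, with medians of 11112.5 UMIs and 3.04% in member cells and 12316 UMIs and 2.94% in all other called cells of this cluster.

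Fewer member cells were found after the later paclitaxel rounds. The share of barcoded cells was 9.89% in UNT cells, 8.37% in PAC1, 2.99% (1.75 to 4.74) in PAC2 with 17 cells and 1.66% (1.18 to 2.27) in PAC3 with 38 cells. The PAC1 interval overlaps neither later one. The PAC3 share was 0.623% by the first revision of the barcode call and 0.547% among cells with exactly 1 detected barcode. Of the 13 lineages, 9 had a cell in PAC1, where 51.5% of the 103 barcodes did, 7 had one in PAC2, against 28.2%, and 6 had one in PAC3, against 19.4%. A share at least 2 times lower than in UNT cells was found for 4 members in PAC1, against 57.3% of the 103, and for 12 of 13 in PAC3, against 92.2%, near the background. A barcode at 0 counted only where 3 cells would still be that low. The members not called in PAC1 were bc14-99-bc30-76284 and, named after their values were seen, bc14-63-bc30-20707, bc14-36-bc30-26254 and bc14-95-bc30-57159. A count of 0 of 1792 barcoded cells is a limit on called cells, and the list of barcodes that the paclitaxel library was searched for is not given in the sources used here.

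In PAC3 most member cells belonged to a single lineage. Of bc14-92-bc30-83570 there were 80 UNT cells, 1.57% (1.25 to 1.95), then 36 cells in PAC1, 2.01% (1.41 to 2.77), 5 in PAC2, 0.879% (0.286 to 2.04), and 24 in PAC3, 1.05% (0.674 to 1.56). Its intervals in UNT cells and PAC3 overlap. It supplied 24 of the 38 member cells of PAC3, and without it the members' PAC3 share was 0.612%. By contrast bc14-21-bc30-67560 made up 1.44% (1.13 to 1.80) of UNT cells and 2.12% of PAC1, with 38 cells, then 1 cell of PAC2, and no PAC3 cell was called. The largest lineage, bc14-14-bc30-67938, was at 1.79% (1.44 to 2.19) in UNT cells, 0.614% (0.307 to 1.10) in PAC1 and 1 cell in each of PAC2 and PAC3. The highest member share of PAC2 was that of bc14-69-bc30-34430, with 6 cells or 1.05% (0.388 to 2.28), against 0.531% (0.350 to 0.771) in UNT cells.

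Cluster 6 held few member cells in PAC2 and about as many as all other clusters together in PAC3. Of 17 member cells in PAC2, 9 lay in cluster 7, 3 in cluster 6 and 3 in cluster 2. The cluster 6 share was 17.6% (3.80 to 43.4), against 3.26% (1.94 to 5.10) for all other called barcodes and 8.97% (3.68 to 17.6) for cluster 1 led lineages. Cluster 7 was frequent in every set, with 52.9% (27.8 to 77.0) of member cells. It held 37.5% of the cells of all other called barcodes, 65.4% of cluster 1 led and 78.6% of cluster 5 led cells. Of 38 member cells in PAC3, 20 lay in cluster 6, or 52.6% (35.8 to 69.0), against 3.91% (3.15 to 4.80) of the 2248 PAC3 cells of all other called barcodes. For cluster 1 led lineages it was 26 of 185 cells, or 14.1% (9.39 to 19.9). Of the 20 member cells, 15 belonged to bc14-92-bc30-83570, and without that lineage the members' share was 35.7%. The other PAC3 cells lay mostly in cluster 2 with 6 cells, cluster 8 with 6 and cluster 7 with 4. Median pseudotime of members was 15.73 (15.25 to 15.81) in PAC1, 13.89 (13.59 to 15.14) in PAC2 and 15.58 (14.88 to 17.37) in PAC3. Without bc14-92-bc30-83570 the PAC3 median was 17.53, so its place beside PAC1 rests on that lineage. Within cluster 6 of PAC3 the median was 14.88 (14.30 to 15.58) in 20 member cells, 15 of them of that lineage. It was 18.75 (18.65 to 18.89) in 88 cells of all other called barcodes, and 17.60 (16.62 to 18.29) in the 26 of these from cluster 1 led lineages.

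For eribulin, what could be called limits what can be said. Every one of the 132 barcodes called in ERI1, 65 in ERI2 and 63 in ERI3 is on the deposited list of 185 barcodes for run 2, while 70.4% of the barcoded PAC1 cells and 63.4% of the barcoded UNT cells carry a listed barcode. Of the members 10 are listed and 3 are not: bc14-95-bc30-88306, bc14-99-bc30-76284 and bc14-63-bc30-20707. Their lack of cells in ERI1, ERI2 and ERI3 therefore says nothing about survival, and eribulin shares in run 2 are given over listed barcodes only, in numerator and denominator. In the paclitaxel library, bc14-95-bc30-88306 had 6 PAC1 cells, so the list did not bound that library.

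Among listed barcodes the members were less frequent after the first eribulin round and not called after the second. They made up 442 of 3225 such UNT cells, 13.7% (12.5 to 14.9), and 46 of 1356 ERI1 cells, 3.39% (2.49 to 4.50). The size of this difference depends on the denominator, as 46.0% of UNT cells and 72.7% of ERI1 cells had a called barcode. Over all cells, barcoded or not, the 13 members made up 4.55% of UNT cells and 2.47% of ERI1, a smaller difference. In ERI2 none of 882 barcoded cells was a member, where a count of 0 is read as allowing up to the share of 3 cells, 0.340%, and in ERI3 4 of 2215 were, 0.181% (0.0492 to 0.462). In ERI3 3 of these 4 were of bc14-92-bc30-83570, and without it the share was 0.0451%. In PAC1, counting listed barcodes only, they made up 11.4% (9.72 to 13.3). In PAC1 and UNT cells unlisted barcodes were called as well, and in ERI1 none was. Taking only listed barcodes afterwards may therefore not make these shares fully alike. ERI1 and PAC1 were in the same run but in separate libraries at different doses, 500 nM and 100 nM. Drug, dose, library and the barcodes that could be called therefore cannot be told apart. Cluster 1 led lineages made up 34.7% (32.2 to 37.3) of ERI1 and 44.1% (42.3 to 45.8) of UNT cells over the same barcodes, intervals that lie nearer to each other than those of the members. Their share was also low in ERI2, at 5.10% (3.75 to 6.77), and was 39.8% (37.7 to 41.8) in ERI3. Cluster 5 led lineages made up 30.2% (28.6 to 31.8) of UNT cells, 42.2% (38.9 to 45.5) of ERI2 and 7.99% (6.90 to 9.20) of ERI3.

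By lineage, 8 of the 10 listed members had a cell in ERI1, where 87.9% of the 66 listed barcodes with 10 or more UNT cells did. None had one in ERI2, against 43.9%, and 2 had one in ERI3, against 45.5%. A share at least 2 times lower than in UNT cells was found for 8 of 10 in ERI1, against 62.1%, and for 10 of 10 in ERI3, against 90.9%. These shares are over cells with a listed barcode, and the counts were not made over all cells. The most frequent in ERI1 was bc14-92-bc30-83570 with 13 cells, followed by bc14-21-bc30-67560 and bc14-69-bc30-34430 with 8 each and bc14-51-bc30-21431 with 7. The largest lineage of UNT cells, bc14-14-bc30-67938, is listed and had no ERI1 cell, which by the limit of 3 cells allows up to 0.221%, while it had 91 UNT cells. In ERI3, bc14-92-bc30-83570 had 3 cells and bc14-51-bc30-38039 had 1, of which 3 lay in cluster 2 and 1 in cluster 0.

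Nearly all member cells of ERI1 lay in cluster 7. Of 46 cells, 43 or 93.5% (82.1 to 98.6) lay in cluster 7 and 2 in cluster 6, against 91.9% (90.3 to 93.3) in cluster 7 for all other called barcodes. Cluster 7 was the most frequent in 4 of 4 members with 5 or more ERI1 cells and in 100% of all 35 such barcodes. Inside cluster 7 the median pseudotime of members was 13.59 (13.14 to 13.73), against 13.58 (13.52 to 13.59) in all other called cells. It was 13.59 (13.58 to 13.59) in cluster 1 led and 13.47 (13.39 to 13.52) in cluster 5 led lineages, and the members' interval takes in both. The contrast with PAC1 is between libraries: in PAC1, 4.00% (1.48 to 8.50) of member cells were in cluster 7.

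After 4 eribulin rounds 6725 ERI4 cells had a called barcode and none was a member, which by the same limit of 3 cells allows up to 0.0446%. Members shared this with most lineages, as 4.85% of the 103 barcodes were found in ERI4 cells. In ERI4 nuclei 7 of 1495 barcoded nuclei were called as members, 0.468% (0.188 to 0.962), from 4 lineages, where 21.4% of the 103 barcodes were found. They were 3 nuclei of bc14-51-bc30-38039, 2 of bc14-69-bc30-34430 and 1 each of bc14-92-bc30-83570 and bc14-51-bc30-21431. With the first revision of the barcode call the share was 0.118%. These nuclei had a median of 2691 UMIs, and 17.2% of all ERI4 nuclei had a called barcode. Free RNA from other nuclei was not measured, and its part in these 7 calls was not tested.

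Phase scores, deposited values for the S phase of DNA synthesis and for G2M around mitosis that can lie below 0, were alike in members and other lineages before treatment to within about the width of their intervals. In UNT cells the median S score was -0.09 (-0.12 to -0.07) in members and -0.09 in both other sets, and the median G2M score was -0.04 (-0.07 to -0.01) in members against -0.06 (-0.07 to -0.04) in cluster 1 led lineages. Taking the higher score above 0 as the phase, 41.4% (37.0 to 45.8) of member cells were called G2M, against 40.6% (39.2 to 42.1) of all other called cells. Among the lineages, the median G2M score ran from -0.15 in bc14-99-bc30-76284 to 0.09 in bc14-95-bc30-57159, a member named for this after its values were seen.

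In PAC1 a lower share of member cells scored as G2M, with intervals that overlap narrowly. The median G2M score of members was -0.14 (-0.17 to -0.10) in PAC1 and -0.04 in UNT cells. The share called G2M was 30.0% (22.8 to 38.0) in PAC1 and 41.4% (37.0 to 45.8) in UNT cells, from different runs. By the first revision of the barcode call the median scores were -0.13 in PAC1 and -0.08 in UNT cells. With exactly 1 detected barcode they were -0.14 and -0.10, so the gap was smaller. For all other called barcodes the shares were 39.5% (37.1 to 41.9) in PAC1 and 40.6% in UNT cells. The intervals of members and others in PAC1 overlap narrowly, and the difference of these changes was not tested. Member cells called S made up 31.3% (24.0 to 39.4) in PAC1 and 29.6% (25.7 to 33.8) in UNT cells. In PAC3, 21 of 38 member cells were called G2M, 55.3% (38.3 to 71.4), with a median G2M score of 0.09, and in ERI1 16 of 46, 34.8% (21.4 to 50.2). For all other called barcodes the shares were 44.4% (42.3 to 46.5) in PAC3 and 43.5% (40.8 to 46.2) in ERI1, inside the members' intervals. Of the 38 PAC3 cells, 24 were of bc14-92-bc30-83570. PAC1 cells were shallower, with a median of 11089 UMIs in member cells, against 18871 in UNT cells. Among cells of 8000 to 25000 UMIs the medians were -0.13 in PAC1 and -0.08 in UNT cells. Genes were not at hand to thin cells to equal depth, so no rate of division is read from these calls.

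The number of barcodes detected beside the called one differed between members. In UNT cells their cells had a median of 3 detected barcodes, as did those of both other sets, so the called barcode was 1 of several. For 6 of the 13 members no UNT cell had exactly 1 detected barcode, against 20.4% of the 103. They include bc14-92-bc30-83570, both bc14-51 lineages and bc14-69-bc30-34430. Cells of bc14-21-bc30-67560 and bc14-14-bc30-67938 had a single barcode in 11 cases each. The first revision called 58.3% of the members' UNT cells Doublet, against 50.0% for other barcodes. With only cells of exactly 1 detected barcode, the members' share was 5.33% of UNT cells, 6.60% of PAC1 and 1.87% of ERI1. Whether 2 members mark one clone could not be read from a table with 1 call per cell. Among 527 UNT nuclei that the first revision named as a pair of barcodes, 48 named a member, 3 named 2 members, and none named both bc14-51 lineages.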

How the data were processed

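The table analysed holds 51785 cells and nuclei from 6 libraries; no gene matrix was used. The submitters' processing notes name Cell Ranger 3.1.0, Cell Ranger 4.0.0, Cell Ranger ARC 1.0.0 and Seurat 3.1.4 and the build mm10, and the design text puts the 3 counters to runs 1, 2 and 3 in that order. The same text gives Seurat for the filter (200 genes, 50% mitochondrial) and clustering, and Monocle3 for pseudotime, with untreated cells as root. Deposited counts, not normalized, are UMIs, genes and different barcodes of each cell. Percent columns, as deposited, are mitochondrial shares, and the deposited score columns are pseudotime and phase scores on arbitrary scales. How the barcodes were called is not given in the sources used here. The latest of the authors' calls was used, with the names of UNT nuclei, written there without hyphens, put in the spelling of the other libraries. Each nucleus has 1 barcode feature more than a cell, so 1 was subtracted.

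Median depth was 11266.5 to 20877 UMIs in whole-cell conditions, 2089 in ERI4 nuclei and 3427.5 in UNT nuclei. Libraries shared 0 to 134 cell barcodes in pairs, and 11 of 1160 member cells carried a shared one. Doublets were handled only through the authors' calls. Shares have exact Clopper-Pearson 95% intervals and medians exact binomial ones (scipy 1.17.1); a share of 0 stands with what 3 cells would make. Medians of pseudotime and phase scores were taken over at least 10 cells, within one cluster over at least 5. Medians of UMIs over a whole condition had no such minimum. The rule and the intervals of medians were tested on simulated data. Barcodes named are the 5 largest, the extremes of the cluster 6 share, the most frequent in each drug condition and the smallest; others are marked. The members and lists were chosen with earlier results of these data known.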

Additional observations from a re-analysis of the deposited data

How the results depend on the processing

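Of 293 values recomputed under the alternatives, 253 stayed inside the counting interval of the reported value or within 1.5 times a reported count, and 40 did not. Many of the 253 could hardly move, so this tally does not measure robustness. The 37 values with the 3 left-out barcodes kept were the same by construction. A further 36 came from the stated filter, outside which only 1 member cell lay. Shares of 0 cannot move where members are only dropped. A minimum of 20 UNT cells changed the UNT share of barcoded cells to 8.55% and that of UNT nuclei to 6.93%, and leaving out bc14-14-bc30-67938 gave 8.10% and 6.95%. The first revision of the call gave 6 members by the rule, all 6 of them among the 13. For the 13 it gave shares of 8.34% in UNT cells, 6.86% in PAC1, 0.623% in PAC3 and 0.118% in ERI4 nuclei, 60.2% of UNT cells in cluster 6 and a UNT G2M median of -0.08. With exactly 1 detected barcode the shares were 5.33% in UNT cells, 6.60% in PAC1, 0.547% in PAC3 and 1.87% in ERI1, the ERI1 cells lay 100% in cluster 7 and 0% in cluster 6, and the UNT medians were 9.78 for pseudotime, -0.05 for S and -0.10 for G2M. With all cells as denominator the shares were 4.55% in UNT cells, 5.12% in PAC1, 2.47% in ERI1, 3.98% in UNT nuclei and, for ERI4 nuclei, 0.0804%. The mean of barcode medians gave a UNT pseudotime of 8.92.

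Alternatives chosen after seeing the data follow. Over listed barcodes the shares were 13.7% in UNT cells, 11.4% in PAC1, 4.75% in PAC2, 2.61% in PAC3 and 11.5% in UNT nuclei. Without bc14-92-bc30-83570 they were 8.32% in UNT cells, 6.36% in PAC1, 0.612% in PAC3, 2.43% in ERI1, 0.0451% in ERI3 and 6.61% in UNT nuclei, 35.7% of PAC3 cells were in cluster 6 and PAC3 pseudotime was 17.53. In the depth window the UNT G2M median was -0.08. The share was lower in PAC3 than in PAC1 and lower in ERI1 than in UNT cells under all of these, while that of PAC1 was above that of UNT cells with all cells as denominator and with exactly 1 detected barcode. No paired analysis was possible because each condition has 1 library. Conditions with under 20 member cells (PAC2, ERI3, ERI4 nuclei) limit what depth can show.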
